A study of Mus musculus with 38 samples.

Results

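RNA was compared between T cells labelled cKO and WT for the chromatin remodeller CHD1 in 7 of the 38 libraries of the series. All 7 were made from T cells with the 2D2 receptor sorted out of the central nervous system (CNS) of mice with experimental autoimmune encephalomyelitis (EAE), and they were chosen by their labels alone. The 4 CHD1 cKO libraries (genotype label Chd1 KO) and the 3 CHD1 WT libraries (Chd1 WT) are both of C57/B6 background. Donor cells of both genotypes carried 2D2, a T cell receptor specific for myelin oligodendrocyte glycoprotein. They were turned from naive T cells into Th17Inf cells in culture, then transferred into WT recipients, so that the host's own immune and CNS cells were CHD1 WT in both groups. At the peak of disease mononuclear cells of brain and spinal cord were separated on Percoll, and 2000 cells were sorted into each library and amplified for 12 cycles. The Cre driver, the deleted exons, the culture cytokines, the sort gate beyond 2D2 and the age of the animals are not given in the sources used here. Nor is it given whether replicates came from separate animals or from pools, so every p value measures only the spread between these libraries.

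CHD1 belongs to the chromodomain helicase DNA-binding family. It binds histone H3 methylated at lysine 4 and moves nucleosomes at active genes behind elongating RNA polymerase II. In mouse embryonic stem cells it is known for keeping chromatin open and transcription high. Th17 cells are helper T cells known for IL-17 and for their dependence on IL-23. In EAE they enter the CNS, meet myelin peptide on MHC class II of dendritic cells, macrophages and microglia, and often take up Th1 traits such as interferon gamma.

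The 7 libraries held 4911109 to 6262849 counts. Levels are CPM, counts relative to library size after correction for library composition (TMM), and a mean ± SD is over n = 4 cKO or n = 3 WT libraries. At least 98.99% of the Trbv counts in every library fell on Trbv16, the segment that the 2D2 receptor uses. Features of repeats and of ribosomal RNA held 13.3 to 21.4% of counts in cKO and 19.0 to 33.2% in WT libraries, the highest being WT library 3. In log2 CPM, cKO library 2 resembled its own group least (mean correlation 0.95, against 0.958 to 0.963 in the other cKO libraries). Chd1 (chromosome 17, 15704967 to 15772610; mm10) stood at 6.19, 6.4, 3.46 and 5.15 CPM in cKO libraries 1 to 4, against 5.27, 6.11 and 5.06 CPM in WT libraries 1 to 3. The groups overlapped (log2 fold change -0.05 ± 0.28, edgeR adjusted p = 0.96). These counts are per whole gene and keep transcript outside a deleted part, so they do not check the genotype, which rests on the labels.

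The defining genes of the labelled cell type were checked next. The receptor and lineage genes of T cells were all counted in every library, with Cd4 at 155 to 256 CPM in cKO and 283 to 377 CPM in WT libraries. The Th17 genes Il17a and Il23r were near the detection limit (3 counts, 0.468 to 0.66 CPM here). Il17a stood at 0.156 to 0.967 CPM in cKO and 0.555 to 1.1 CPM in WT libraries, and Il23r, the receptor for IL-23, was at 0 in all cKO libraries, against 0.703, 0.37 and 0.66 CPM in WT libraries, and neither passed the filter on low counts for the edgeR test. The libraries also held RNA of cells that a pure T cell sort would lack. All 28 macrophage and monocyte genes listed, all 11 microglia genes and all 12 dendritic cell genes were counted in at least 1 library of each group. The microglial receptor gene P2ry12 stood at 43.5 to 98.2 CPM in cKO and 29.1 to 49.95 CPM in WT libraries, and the lysozyme gene Lyz2 at 480.5 to 1745 CPM in cKO and 461 to 598 CPM in WT libraries. T cell genes are therefore described apart from RNA of myeloid and antigen-presenting cells.

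Across the transcriptome 1 gene of 11157 tested, Cd209a, passed the threshold of an adjusted p under 0.05 (0.00896% of genes tested), and it was higher in cKO cells. No gene was called lower (0%). At an unadjusted edgeR p under 0.05 there were 1326 genes (11.9%), of which 675 were higher in cKO (6.05%) and 651 lower (5.83%). Every cKO library lay above every WT library for 664 genes (5.95%) and below every WT library for 762 (6.83%). Fold changes were centred near 0, with a median log2 fold change of -0.01, 48.9% of genes positive and 51.1% negative. DESeq2 called 178 of the 7090 genes to which it gave an adjusted p (2.51%), 131 higher (1.85%) and 47 lower (0.663%), Cd209a among the higher. The shares at an unadjusted p under 0.05 (6.05% higher, 5.83% lower) are the background for the list counts of this fit below. Counts from fits without 1 library have backgrounds of their own. Without cKO library 1, 2, 3 or 4 in turn, 5.82, 7.05, 6.11 and 5.96% of genes were higher and 5.69, 7.66, 5.8 and 4.43% lower. Without WT library 1, 2 or 3 in turn, 4.54, 4.52 and 4.02% were higher and 3.65, 4.61 and 4.21% lower. Apart from Cd209a, the genes named for the cKO against WT comparison in the CNS did not pass the edgeR threshold, and their values are given as measured.

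**Figure D1:**
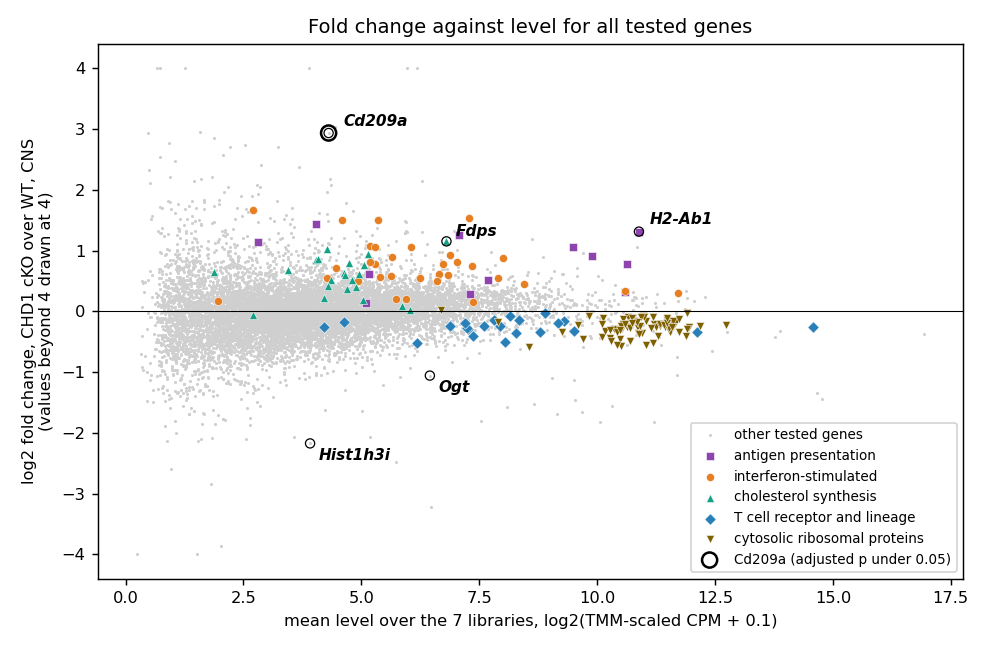
Log2 fold change (CHD1 cKO over WT, CNS; y axis) against mean level over the 7 libraries (log2 of TMM-scaled CPM plus 0.1; x axis) for all 11157 tested genes. Cd209a, in the large ring, is the gene with an adjusted p under 0.05, while members of the antigen presentation, interferon and cholesterol lists lie mostly above 0 and ribosomal protein and T cell receptor genes mostly below it. Small rings mark 4 further genes by name.

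Cd209a encodes a C-type lectin of the DC-SIGN family, known in mice as a marker of monocyte-derived and type 2 conventional dendritic cells (chromosome 8, 3743397 to 3748984; mm10). It stood at 20.3, 43.9, 34.6 and 26.7 CPM in cKO libraries 1 to 4, against 4.57, 3.7 and 3.96 CPM in WT libraries 1 to 3. Every cKO library was above every WT library. Cd209a rose 7.65-fold in the fit (log2 fold change 2.93 ± 0.30, edgeR adjusted p = 0.0259). It was not counted in any of the 4 WT control Th17 cultures of the series, whose table was normalized separately. The size held when libraries were left out (log2 fold change 2.73 to 3.09), but the call did not. The edgeR adjusted p was 0.0627 without cKO library 3, and 0.161, 0.227 and 0.316 without WT library 1, 2 or 3 in turn. Its paralogues lie side by side on chromosome 8, and the counting could split reads between them. Cd209c (3.98 to 10.5 CPM in cKO and 4.74 to 8.14 CPM in WT libraries), Cd209d (0.624 to 3.91 CPM in cKO and 0.22 to 3.34 CPM in WT libraries) and Cd209e (0.468 to 2.31 CPM in cKO and 0 to 4.44 CPM in WT libraries) overlapped between groups. In bulk RNA of sorted cells, more cells of a type and more RNA per cell cannot be told apart.

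The stretch before the start of Cd209a is shown because it is the gene that passed the threshold. These are the 250 bases upstream of its RefSeq start (GRCm38.p6, chr8:3748985-3749234, minus strand). It holds none of the motifs searched below, so all letters are lower case.
Cd209a: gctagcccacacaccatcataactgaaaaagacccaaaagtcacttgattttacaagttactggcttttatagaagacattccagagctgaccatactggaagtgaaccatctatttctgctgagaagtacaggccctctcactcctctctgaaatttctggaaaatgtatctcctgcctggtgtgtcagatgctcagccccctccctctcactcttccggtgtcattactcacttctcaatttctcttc

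Genes of antigen presentation lay in the same direction as Cd209a. Of 12 tested, 9 were higher in cKO cells at an unadjusted p under 0.05 (background 6.05%) and none lower (background 5.83%), and all 12 were positive (median log2 fold change 0.85, against -0.01 over all genes). H2-Ab1, the beta chain of MHC class II I-A, stood at 3352, 2722, 2250.2 and 1851 CPM in cKO libraries 1 to 4, against 897, 1227 and 948 CPM in WT libraries 1 to 3. The lowest cKO library was above the highest WT library (log2 fold change 1.31 ± 0.21, edgeR adjusted p = 0.15). Its partner chain H2-Aa stood at 1685, 1152, 1042 and 856 CPM in cKO libraries 1 to 4, against 620.1, 703 and 559 CPM in WT libraries 1 to 3, and the I-E beta chain H2-Eb1 at 1328, 908, 772 and 673 CPM in cKO libraries 1 to 4, against 414, 519 and 391 CPM in WT libraries 1 to 3. Neither gene overlapped between groups. The WT control cultures averaged 243 CPM of H2-Ab1 and 2.44 CPM of H2-Aa. Cd74, the invariant chain that guards class II on its way to the surface, stood at 2678, 2132, 1623 and 1308 CPM in cKO libraries 1 to 4, against 1097, 1256 and 1039 CPM in WT libraries 1 to 3. H2-DMb1, part of the peptide-loading molecule H2-DM, averaged 179 ± 59.8 CPM in cKO and 75 ± 7.7 CPM in WT libraries, and H2-DMa 235 ± 35.8 CPM in cKO and 164 ± 10.9 CPM in WT libraries. Within the cKO group these genes were highest in library 1 or 2 and lowest or next to lowest in library 4.

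The promoters of H2-Aa and H2-Eb1 are shown because class II genes were higher side by side and are known to share a regulatory module, of which the Y box is 1 element. The Y box was searched as CTGATTGG on both strands of the 250 bases upstream of the RefSeq start. Capitals mark the match. It was found in 3 of the 8 antigen presentation genes with a promoter in the RefSeq table, against 6.78% of 8500 tested genes with a promoter and 3.83% of all 32851 promoters. The share was similar in cholesterol synthesis genes (5 of 15), so the match was not particular to class II genes. It was lower in interferon-stimulated genes (0 of 22) and ribosomal protein genes (2 of 58). H2-Aa is from GRCm38.p6, chr17:34287824-34288073, minus strand, and H2-Eb1 from chr17:34305617-34305866, plus strand.
H2-Aa: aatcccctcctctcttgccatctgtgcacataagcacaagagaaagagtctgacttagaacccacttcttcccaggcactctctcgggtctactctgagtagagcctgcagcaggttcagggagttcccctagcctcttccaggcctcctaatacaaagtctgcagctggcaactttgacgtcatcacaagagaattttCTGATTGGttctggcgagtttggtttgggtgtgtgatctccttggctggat
H2-Eb1: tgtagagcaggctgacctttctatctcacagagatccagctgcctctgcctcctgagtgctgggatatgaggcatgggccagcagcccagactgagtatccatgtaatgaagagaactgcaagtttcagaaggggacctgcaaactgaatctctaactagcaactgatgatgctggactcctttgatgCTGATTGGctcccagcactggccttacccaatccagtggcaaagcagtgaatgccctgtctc

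Most dendritic cell genes lay in the same direction. Of 10 tested, 6 were higher at an unadjusted p under 0.05, Cd209a included, and none lower (median 0.91), while Zbtb46 and Xcr1 had too few counts to test. Of the 10, 9 were positive and 1 negative. Clec10a, a C-type lectin of type 2 dendritic cells and macrophages, stood at 15.5, 18.7, 16.8 and 10.3 CPM in cKO libraries 1 to 4, against 4.92, 5.92 and 6.16 CPM in WT libraries 1 to 3. The costimulatory ligand gene Cd86 averaged 39 ± 8.29 CPM in cKO and 22.5 ± 1.65 CPM in WT libraries, and the chemokine gene Ccl17 43.2 ± 18.5 CPM in cKO and 20.9 ± 5.35 CPM in WT libraries. Clec10a and Cd86 did not overlap between groups, whereas Ccl17 did. Batf3 (log2 fold change -0.10), Itgax (0.40) and Fscn1 (0.68) overlapped too, and none of them passed an unadjusted p of 0.05. Among the 15 higher genes with the smallest p at 10 CPM or more were further genes known from myeloid cells. Cst3, encoding the protease inhibitor cystatin C, stood at 2674, 2756, 2336 and 1719.8 CPM in cKO libraries 1 to 4, against 1249.6, 1217 and 953 CPM in WT libraries 1 to 3. Aif1, an actin-binding protein of macrophages and microglia, stood at 175, 207, 148 and 132 CPM in cKO libraries 1 to 4, against 92.9, 82 and 70.0 CPM in WT libraries 1 to 3. Mpeg1 (perforin-2, 44.1 and 20.7 CPM in cKO and WT), Plbd1 (a phospholipase B-like gene, 83.4 and 29.5 CPM), Napsa (the aspartic protease napsin A, 26.9 and 8.76 CPM) and Sirpb1c (a signal-regulatory protein, 32.5 and 14 CPM) likewise did not overlap. The edgeR adjusted p of these 6 genes was 0.15 to 0.171.

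RNA of macrophages and microglia was more mixed. Of 27 tested macrophage and monocyte genes, 12 were higher at an unadjusted p under 0.05 and none lower (median 0.48), against 7 and 8 higher without WT library 1 or 3 in turn. Of the 27, 23 were positive and 4 negative. Apoe (log2 fold change 0.17) and Chil3 (-1.10) overlapped between groups. C1qb, a chain of complement C1q, stood at 1329.6, 1436, 1279.5 and 814 CPM in cKO libraries 1 to 4, against 767, 922 and 742 CPM in WT libraries 1 to 3, and Tyrobp, the adaptor DAP12, at 771, 757, 660.0 and 397 CPM in cKO libraries 1 to 4, against 351, 446 and 424 CPM in WT libraries 1 to 3. Lyz2 stood at 1745, 480.5, 1388 and 593 CPM in cKO and 461, 598 and 554 CPM in WT libraries, with cKO libraries 1 and 3 apart from the other 5. Of 11 microglia genes 6 were higher and none lower (median 0.74), against 9 without cKO library 4. Tmem119 averaged 128 ± 39.4 CPM in cKO and 71.4 ± 10.5 CPM in WT libraries and did not overlap, and Siglech averaged 84 ± 14.3 CPM in cKO and 48.6 ± 10.3 CPM in WT libraries and did not overlap either. P2ry12 did.

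Summed over each list, antigen presentation RNA stood at 11704, 9568, 8304 and 6289 CPM in cKO libraries 1 to 4, against 4893, 5647 and 4558 CPM in WT libraries 1 to 3. Dendritic cell RNA stood at 234, 236, 222 and 160.3 CPM in cKO libraries 1 to 4, against 128, 122 and 114 CPM in WT libraries 1 to 3. Both sums were higher in every cKO library. The macrophage sum stood at 10013, 8323, 10445 and 5500.0 CPM in cKO libraries 1 to 4, against 4959, 7595 and 6979 CPM in WT libraries 1 to 3, and the microglia sum at 1442, 1730.1, 1358 and 936 CPM in cKO libraries 1 to 4, against 941, 993 and 701 CPM in WT libraries 1 to 3. In both, cKO library 4 lay within the WT range. B cell RNA was 109 to 539 CPM in cKO and 48.3 to 79 CPM in WT libraries, the highest being cKO library 3, where Igkc, the kappa light chain constant gene, stood at 428 CPM. Red cell RNA was 374 and 588 CPM in cKO libraries 1 and 4 and at most 4.8 CPM in the other 5 libraries. Sums of astrocyte, neuron, neutrophil and endothelium RNA overlapped between groups, at most 44.7 CPM in any library, with no tested member past an unadjusted p of 0.05 but 1 neutrophil gene, higher in cKO. Oligodendrocyte RNA was 166 to 192 CPM in cKO and 155 to 159 CPM in WT libraries, with none of its 4 tested genes past that threshold. The part of other cells' RNA in the results that follow was not tested, apart from a fit with the summed RNA of 63 macrophage, microglia, antigen presentation and dendritic cell genes as a covariate. In that fit 324 genes were higher (2.9%) and 315 lower (2.82%) at an unadjusted p under 0.05, which is the background for each count with the covariate. No gene was called, and Cd209a had a log2 fold change of 2.92 (edgeR adjusted p = 0.782). The sum contains Cd209a, the class II genes and the macrophage and microglia genes themselves. Its antigen presentation and dendritic cell parts were higher in every cKO library. The covariate therefore takes up part of the genotype difference, and the fit cannot tell them apart. With it, 1 of the 12 antigen presentation genes was higher and 1 lower (median 0.32), and of macrophage genes 2 were higher and 3 lower (median -0.20). The log2 fold changes of C1qb, Lyz2, Tyrobp and P2ry12 turned from positive to values of -0.11 to -0.0496 in that fit. These genes are members of the sum, so a loss of their difference was in large part set in advance.

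**Figure D2:**
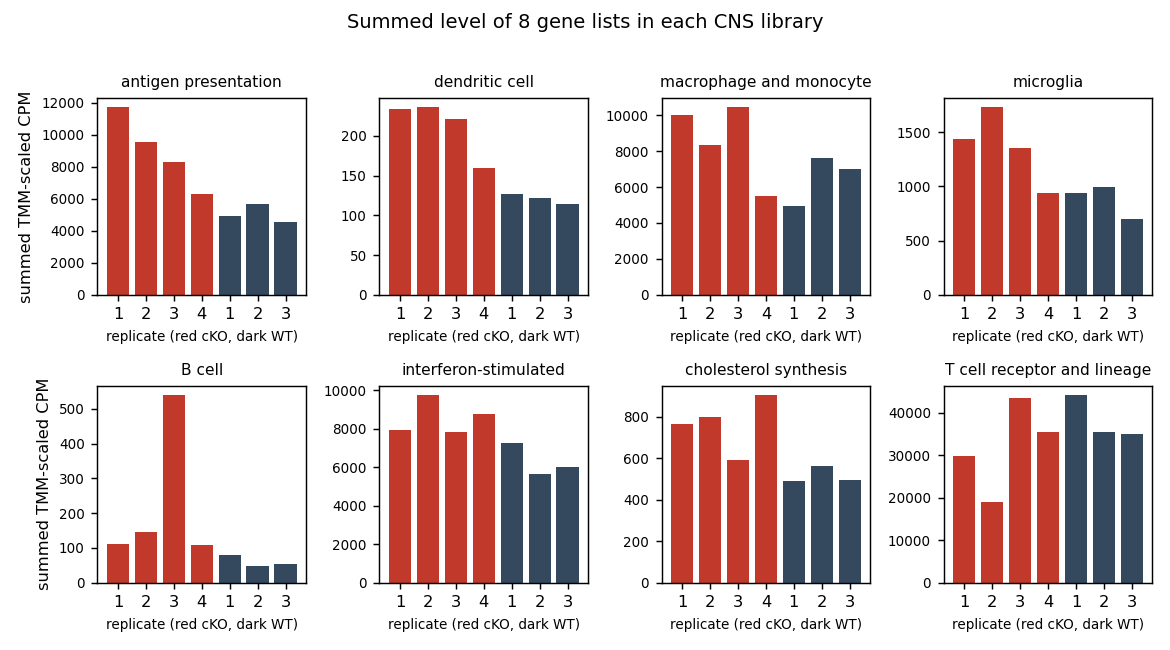
Summed TMM-scaled CPM (y axis) of 8 gene lists in each library, with 4 cKO libraries (red) left of 3 WT libraries (dark). Antigen presentation and dendritic cell sums are higher in every cKO library, while the macrophage, microglia and T cell receptor sums overlap between groups and B cell RNA is highest in cKO library 3.

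Interferon-stimulated genes were higher as a group. Of 32 genes, all tested, 21 were higher in cKO cells at an unadjusted p under 0.05 and none lower, and all 32 were positive (median 0.67). None passed the adjusted threshold in edgeR, while DESeq2 called 8 of them higher. For 18 of them every cKO library lay above every WT library (background 5.95%). Usp18, a protease that removes the ubiquitin-like protein ISG15, stood at 49.3, 67, 32.2 and 52.9 CPM in cKO libraries 1 to 4, against 24.9, 24.4 and 22.7 CPM in WT libraries 1 to 3 (log2 fold change 1.07 ± 0.23, edgeR adjusted p = 0.226). Oas1a, an antiviral RNA sensor, stood at 43.9, 58.6, 43.8 and 44.3 CPM in cKO libraries 1 to 4, against 31.4, 28.5 and 22.9 CPM in WT libraries 1 to 3, and Bst2, the virus-tethering protein tetherin, at 295, 444, 246 and 289 CPM in cKO libraries 1 to 4, against 182, 167 and 171 CPM in WT libraries 1 to 3. The nucleic acid sensor Zbp1 stood at 127, 206, 134 and 176 CPM in cKO libraries 1 to 4, against 99.4, 90.1 and 85.4 CPM in WT libraries 1 to 3. In these 4 genes cKO library 2 was the highest of all 7. Without cKO library 2, 18 of the 32 genes were higher and none lower (median 0.57). With the covariate of myeloid and antigen-presentation RNA 12 were higher and none lower (median 0.74). Summed, the list stood at 7942, 9733, 7833 and 8771 CPM in cKO libraries 1 to 4, against 7255, 5662 and 6008 CPM in WT libraries 1 to 3. Ifi205, an interferon-inducible gene outside the list, stood at 24.9, 49, 22.5 and 23.6 CPM in cKO libraries 1 to 4, against 2.81, 9.81 and 7.26 CPM in WT libraries 1 to 3, and was not counted in the WT cultures.

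The promoters of Oas1a and Bst2 are shown for the element through which type I interferon is known to act on such genes. It was searched as GAAA, any 2 bases and GAAA again, on both strands of the 250 bases upstream of the RefSeq start, and capitals mark the matches, 2 of which overlap in each gene. A match stood in 14 of the 22 interferon-stimulated genes with a promoter in the table, against 3.69% of tested genes with a promoter and 2.98% of all promoters. Oas1a is from GRCm38.p6, chr5:120907526-120907775, minus strand, and Bst2 from chr8:71537473-71537722, minus strand.
Oas1a: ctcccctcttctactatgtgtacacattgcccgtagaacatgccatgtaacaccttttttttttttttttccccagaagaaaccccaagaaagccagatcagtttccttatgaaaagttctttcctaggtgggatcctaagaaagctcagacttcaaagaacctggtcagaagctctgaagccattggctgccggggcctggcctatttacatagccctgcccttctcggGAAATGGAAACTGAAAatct
Bst2: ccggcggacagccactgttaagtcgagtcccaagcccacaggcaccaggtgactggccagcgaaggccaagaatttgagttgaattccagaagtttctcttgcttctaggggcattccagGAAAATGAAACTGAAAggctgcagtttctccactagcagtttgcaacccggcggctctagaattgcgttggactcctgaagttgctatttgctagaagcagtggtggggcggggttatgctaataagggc

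Genes of cholesterol synthesis were higher too. Of 22 genes, all tested, 13 were higher at an unadjusted p under 0.05 and none lower, and 21 were positive (median 0.60). Fdps, which makes farnesyl diphosphate in the mevalonate pathway, stood at 142, 162, 97.9 and 182 CPM in cKO libraries 1 to 4, against 61.8, 70.9 and 64.5 CPM in WT libraries 1 to 3. The groups did not overlap (log2 fold change 1.15 ± 0.20, edgeR adjusted p = 0.15). In the 4 WT control cultures it averaged 495 CPM. The mevalonate pathway kinase Pmvk averaged 40.2 ± 5.69 CPM in cKO and 23.6 ± 1.33 CPM in WT libraries, and the decarboxylase Mvd 20.2 ± 3.31 CPM in cKO and 11.3 ± 2.66 CPM in WT libraries. Msmo1, a sterol C4 oxidase, stood at 30.9, 34.6, 27.8 and 36.2 CPM in cKO libraries 1 to 4, against 14.2, 21.1 and 20.7 CPM in WT libraries 1 to 3. With the covariate 8 of the 22 genes were higher and none lower (median 0.70). Summed, the list stood at 762, 800.1, 593 and 903 CPM in cKO libraries 1 to 4, against 490.2, 559.8 and 493 CPM in WT libraries 1 to 3, without overlap.

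The promoter of Msmo1 is shown because genes of this pathway are known for CCAAT boxes beside the sites of sterol-regulated factors. CCAAT, on either strand of the 250 upstream bases, was found in all 15 cholesterol synthesis genes with a promoter in the table, against 41.1% of tested genes and 33.8% of all promoters. It was also found in 7 of 8 antigen presentation genes, 7 of 22 interferon-stimulated genes and 17 of 58 ribosomal protein genes. The Y box above ends in the reverse complement of CCAAT, so the searches overlap. Msmo1 is from GRCm38.p6, chr8:64733579-64733828, minus strand, with its matches in capitals.
Msmo1: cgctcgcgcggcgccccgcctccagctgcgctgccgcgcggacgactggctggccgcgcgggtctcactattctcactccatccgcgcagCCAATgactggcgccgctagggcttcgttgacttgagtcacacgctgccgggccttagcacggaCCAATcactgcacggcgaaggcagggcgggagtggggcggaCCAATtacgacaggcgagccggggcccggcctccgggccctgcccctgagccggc

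Endoplasmic reticulum folding genes had a smaller shift. Of 19 genes 8 were higher at an unadjusted p under 0.05 and none lower (median 0.27), and 5 without cKO library 4 or any 1 WT library. Sdf2l1, a cochaperone, stood at 128, 162, 100.5 and 144 CPM in cKO libraries 1 to 4, against 53.7, 77.9 and 71.3 CPM in WT libraries 1 to 3. Creld2 averaged 110.1 ± 27.9 CPM in cKO and 68.2 ± 3.8 CPM in WT libraries, the secreted stress protein gene Manf 158 ± 39.4 CPM in cKO and 99 ± 8.04 CPM in WT libraries, and the disulfide isomerase Pdia6 160.4 ± 18.3 CPM in cKO and 113 ± 11.5 CPM in WT libraries. None of these 4 overlapped between groups. With the covariate 3 of the 19 were higher (median 0.34). Snf8, a subunit of the endosomal ESCRT-II complex and among the 15 higher genes with the smallest p, stood at 109.8, 123, 136 and 114 CPM in cKO libraries 1 to 4, against 71.1, 80.3 and 76.2 CPM in WT libraries 1 to 3.

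**Figure D3:**
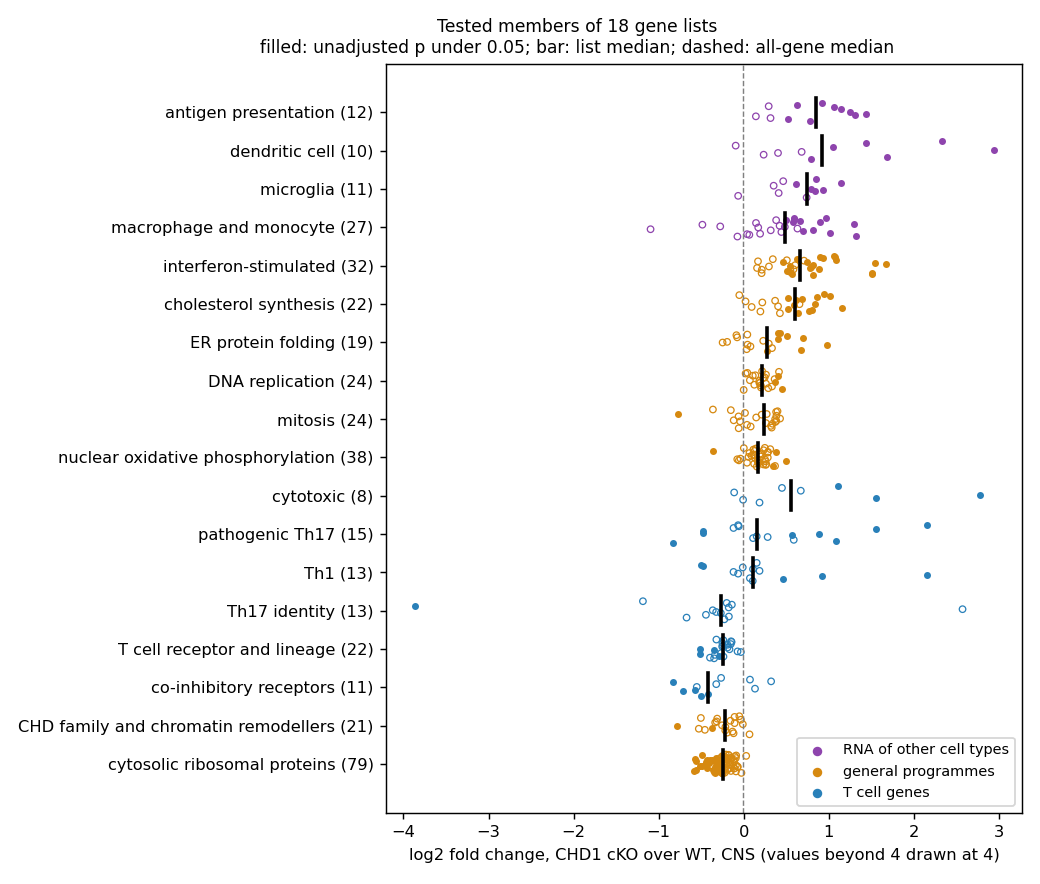
Log2 fold changes (CHD1 cKO over WT, CNS; x axis) of the tested members of 18 gene lists, with the number tested in brackets. Filled points have an unadjusted p under 0.05, black bars are list medians, and the dashed line is the median of all tested genes. The interferon median lies at 0.67, the cholesterol median at 0.60 and the ribosomal protein median at -0.25.

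Of the 22 T cell receptor and lineage genes all were tested, all had a negative log2 fold change, and 4 were lower at an unadjusted p under 0.05 (median -0.25), against 1 or 2 without cKO library 1 or any 1 WT library. Cd28, the main costimulatory receptor, stood at 54.1, 62.9, 69.7 and 57 CPM in cKO libraries 1 to 4, against 91.5, 89.7 and 80.3 CPM in WT libraries 1 to 3, and Cd4 at 256, 155, 239 and 248 CPM in cKO libraries 1 to 4, against 377, 283 and 298 CPM in WT libraries 1 to 3. The receptor constant gene Trbc1 averaged 397 ± 58.5 CPM in cKO and 504 ± 16.7 CPM in WT libraries, and Cd247, the zeta chain, 139 ± 18 CPM in cKO and 171 ± 2.06 CPM in WT libraries. None of these 4 genes overlapped between groups, and their edgeR adjusted p was 0.247 to 0.416. The summed list overlapped between groups, with cKO library 2 lowest at 18876 CPM and WT library 1 highest at 44061 CPM. Macrophage, microglia and antigen presentation sums were higher on average in cKO than in WT. Among cKO libraries, library 3 had both the highest T cell sum (43382 CPM) and the highest macrophage sum (10445 CPM). Library 2 had the highest microglia sum (1730 CPM). Whether RNA of other cells lowered the T cell genes was not tested beyond the covariate fit. With the covariate 1 of the 22 genes was lower (median -0.05).

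Among Th17 identity genes 1 of 13 tested was lower at an unadjusted p under 0.05 and none higher (median -0.27), while 5 were not tested for low counts. Il17f, a Th17 cytokine, stood at 0, 1.42, 0.346 and 0.468 CPM in cKO libraries 1 to 4, against 2.63, 19.1 and 3.74 CPM in WT libraries 1 to 3 (log2 fold change -3.86 ± 0.88, edgeR adjusted p = 0.236). Within WT the values were spread, library 2 being the highest. The anti-inflammatory cytokine gene Il10 stood at 0.193, 0.355, 4.67 and 0.468 CPM in cKO libraries 1 to 4, against 1.05, 3.7 and 13.9 CPM in WT libraries 1 to 3 and overlapped. Csf2, encoding GM-CSF, reached 1.25 CPM at most and was not tested.

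Of 15 tested genes linked to pathogenic Th17 cells, 5 were higher and 3 lower at an unadjusted p under 0.05 (median 0.15). Ifng, encoding interferon gamma, stood at 66.3, 221, 41 and 137 CPM in cKO libraries 1 to 4, against 26.2, 24.4 and 28 CPM in WT libraries 1 to 3. Every cKO library was above every WT library, but the cKO libraries also differed widely among themselves, and the log2 fold change of 2.15 ± 0.51 did not pass (edgeR adjusted p = 0.236). DESeq2 gave Ifng an adjusted p of 0.0225. The chemokine genes Ccl3 (38.9 to 73.6 CPM in cKO and 23.3 to 37.8 CPM in WT libraries) and Ccl4 (98.4 to 178 CPM in cKO and 73.5 to 94.4 CPM in WT libraries), which recruit leukocytes, did not overlap between groups. Lgals3, encoding galectin-3, averaged 331 ± 42.5 CPM in cKO and 223 ± 11.7 CPM in WT libraries. These 3 genes are also made by myeloid cells. Tbx21, encoding the Th1 regulator T-bet, stood at 81.8, 57.9, 68.5 and 104 CPM in cKO libraries 1 to 4, against 74.1, 72.2 and 64.5 CPM in WT libraries 1 to 3, with no separation (log2 fold change 0.15 ± 0.19). In the Th1 list 3 of 13 tested genes were higher and 2 lower (median 0.10), with Il12rb2, a chain of the IL-12 receptor, at 38.2 to 62.7 CPM in cKO and 68.1 to 77.3 CPM in WT libraries. Of 7 Th2 genes 2 were lower (median -0.08), among them Il4 (8.4 and 18.3 CPM in cKO and WT).

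Cytotoxic and chemokine genes of lymphocytes that passed an unadjusted p of 0.05 were all higher. Of 8 tested cytotoxic genes 3 were higher at an unadjusted p under 0.05 and none lower (median 0.56). The granzyme gene Gzma stood at 67.5, 88.7, 98.6 and 181 CPM in cKO libraries 1 to 4, against 42.3, 60.7 and 48.4 CPM in WT libraries 1 to 3, and Gzmb at 21.7, 111, 35.5 and 63.5 CPM in cKO libraries 1 to 4, against 13, 32 and 14.1 CPM in WT libraries 1 to 3. Klrk1, the activating receptor NKG2D, stood at 39.4, 56.1, 32 and 31.1 CPM in cKO libraries 1 to 4, against 18.4, 12.2 and 16.7 CPM in WT libraries 1 to 3 (log2 fold change 1.33 ± 0.25, edgeR adjusted p = 0.171), and Klre1, a receptor of natural killer cells, averaged 3.89 and 1.15 CPM in cKO and WT libraries. Defining genes of natural killer cells such as Ncr1 and Klrb1c had too few counts to test, and the 6 natural killer genes summed to 37.5 to 64.5 CPM in cKO and 13.1 to 22 CPM in WT libraries. Ly6c2, a surface protein of monocytes and of activated T cells, stood at 398, 654, 419 and 595 CPM in cKO libraries 1 to 4, against 189, 225 and 267 CPM in WT libraries 1 to 3 without overlap (log2 fold change 1.19 ± 0.21, edgeR adjusted p = 0.15). Its neighbour genes of the Ly6 family are similar in sequence, and reads could be split among them. Of 13 T cell chemokine and TNF family genes 4 were higher and none lower (median 0.13). Xcl1, which draws cross-presenting dendritic cells, stood at 183, 29.1, 33.9 and 110.0 CPM in cKO libraries 1 to 4, against 16.5, 4.26 and 10.6 CPM in WT libraries 1 to 3, and Lta, encoding lymphotoxin alpha, averaged 92.4 ± 20.02 CPM in cKO and 56.5 ± 13.1 CPM in WT libraries.

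Of 11 tested co-inhibitory receptor genes 5 were lower at an unadjusted p under 0.05 and none higher (median -0.42), against 2 or 3 without cKO library 4, WT library 1 or WT library 2. Btla stood at 13.9, 12.6, 11.8 and 10.5 CPM in cKO libraries 1 to 4, against 17.6, 23.7 and 18.7 CPM in WT libraries 1 to 3, without overlap. Lag3 (44.2 to 136 CPM in cKO and 128 to 183 CPM in WT libraries), Cd200 (72 to 104 CPM in cKO and 100.2 to 156 CPM in WT libraries) and Ctla4 (41 to 75.4 CPM in cKO and 69.4 to 88.8 CPM in WT libraries) overlapped. With the covariate 3 of the 11 were lower and none higher (median -0.61). Regulatory and non-pathogenic Th17 genes were split, 2 of 13 higher and 2 lower (median 0.02). Entpd1, the ectonucleotidase CD39, stood at 119, 153, 116 and 114 CPM in cKO libraries 1 to 4, against 76, 79.7 and 76.6 CPM in WT libraries 1 to 3, and Foxp3, the regulator of regulatory T cells, at 7.93, 5.33, 3.98 and 4.68 CPM in cKO libraries 1 to 4, against 3.16, 2.04 and 1.54 CPM in WT libraries 1 to 3, both without overlap. Maf, a transcription factor that drives Il10 in helper T cells, averaged 11.2 ± 4.88 CPM in cKO and 23.1 ± 4.04 CPM in WT libraries. Among stem-like and naive T cell genes 1 of 13 was lower and 1 higher (median -0.27). Lef1 stood at 35.2, 32.9, 24.9 and 39 CPM in cKO libraries 1 to 4, against 62.9, 53.7 and 46.7 CPM in WT libraries 1 to 3, without overlap. Tcf7, encoding the related factor TCF-1, averaged 39.4 ± 11 CPM in cKO and 52.3 ± 4.18 CPM in WT libraries.

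The glucocorticoid receptor gene and its targets showed no clear shift in common. Nr3c1, encoding the receptor, averaged 13.1 ± 3.24 CPM in cKO and 16.2 ± 5.47 CPM in WT libraries, Fkbp5 20.03 ± 7.63 CPM in cKO and 25.6 ± 8.52 CPM in WT libraries, and Tsc22d3 (GILZ) 125 ± 27 CPM in cKO and 98.8 ± 27.3 CPM in WT libraries. All 3 overlapped between groups. Of 16 tested glucocorticoid-induced genes 2 were higher and 1 lower (median 0.05), with Dusp1, a phosphatase of MAP kinases, at 249.7 to 391 CPM in cKO and 215 to 258 CPM in WT libraries, and the clock gene Per1 at 33.2 to 55.9 CPM in cKO and 24.6 to 39.6 CPM in WT libraries. Both overlapped between groups. The lower gene was Ddit4, which had the smallest p of the list and did not overlap (log2 fold change -0.76, edgeR adjusted p = 0.171). Of 20 tested cytokine receptor genes 2 were higher and 4 lower (median -0.03). Ifnar2, a chain of the type I interferon receptor, stood at 74.8, 76.6, 60.02 and 59.9 CPM in cKO libraries 1 to 4, against 42.5, 49.6 and 48.2 CPM in WT libraries 1 to 3, and Il10ra averaged 67.9 ± 17.8 CPM in cKO and 40.6 ± 3.66 CPM in WT libraries. Of 16 JAK, STAT and SOCS genes 3 were higher and 3 lower (median -0.10), with Jak3 at 75.5 to 104 CPM in cKO and 127 to 134 CPM in WT libraries and Stat5b at 12.5 to 18.3 CPM in cKO and 21.8 to 23.8 CPM in WT libraries. Chemokine receptor and homing genes (3 higher and 1 lower of 22, median 0.04), NF-kB genes (1 and 1 of 20, -0.04) and apoptosis regulators (none higher and 2 lower of 16, 0.08) lay near the background.

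**Figure D4:**
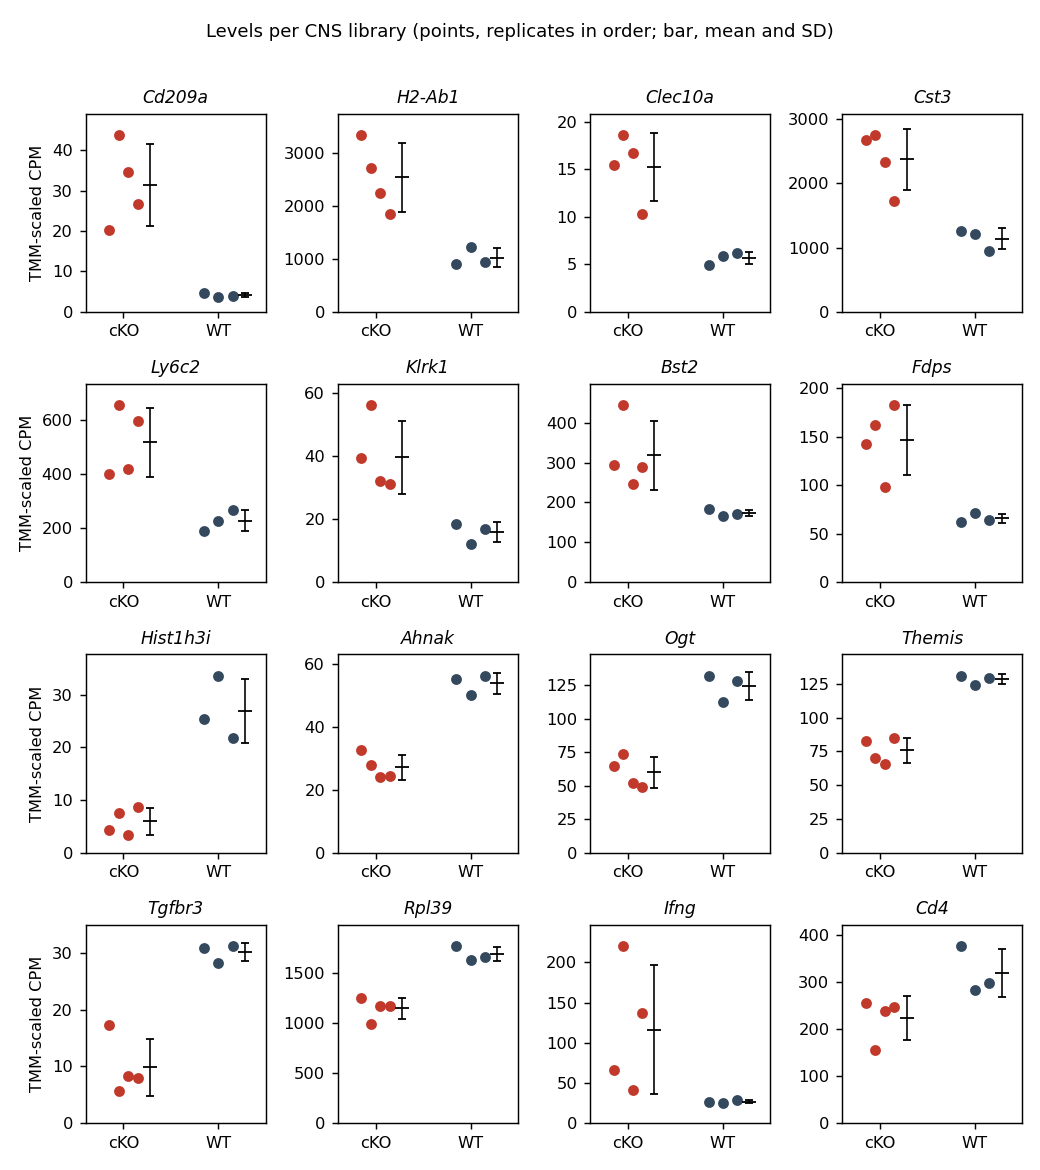
TMM-scaled CPM (y axis, from 0) of 16 genes in each CNS library, cKO (red, n = 4) left of WT (dark, n = 3), with the mean and SD beside the points. For Cd209a the 4 cKO libraries stand at 20.3 to 43.9 CPM and the WT libraries at 3.7 to 4.57 CPM, and for Ogt all cKO libraries lie below all WT libraries.

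Among genes lower in cKO cells none passed the threshold. The 15 with the smallest p at 10 CPM or more did not overlap between groups (background 6.83%). They were picked by p in this same comparison, so that separation was in large part set in advance. Hist1h3i, a replication-dependent histone H3 gene, stood at 4.25, 7.46, 3.29 and 8.74 CPM in cKO libraries 1 to 4, against 25.5, 33.7 and 21.8 CPM in WT libraries 1 to 3 (log2 fold change -2.17 ± 0.31, edgeR adjusted p = 0.15). Histone H3 genes of its cluster are near-identical, so the reads cannot be assigned to 1 of them with certainty. Ahnak, a giant scaffold protein linked to calcium channels in T cells, stood at 32.7, 27.7, 24 and 24.3 CPM in cKO libraries 1 to 4, against 55.1, 50.1 and 56.3 CPM in WT libraries 1 to 3. Ogt, the X-linked enzyme that adds GlcNAc to nuclear and cytoplasmic proteins, stood at 65, 73.4, 52.2 and 48.7 CPM in cKO libraries 1 to 4, against 132, 112 and 128 CPM in WT libraries 1 to 3 (log2 fold change -1.06 ± 0.16, edgeR adjusted p = 0.15), in every cKO library below every WT library. The WT control cultures averaged 113 CPM of Ogt, near the WT libraries. Themis, a regulator of T cell receptor signalling in thymocytes, stood at 82.6, 70.4, 66.1 and 85 CPM in cKO libraries 1 to 4, against 131, 125 and 129.9 CPM in WT libraries 1 to 3. Tgfbr3, the TGF-beta coreceptor betaglycan, stood at 17.2, 5.69, 8.3 and 7.96 CPM in cKO libraries 1 to 4, against 30.9, 28.3 and 31.3 CPM in WT libraries 1 to 3, with cKO library 1 the highest of its group.

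The remaining genes of that set had smaller levels or changes. Ddit4, an inhibitor of mTORC1, averaged 21.9 ± 2.56 CPM in cKO and 37.2 ± 1.34 CPM in WT libraries. The Mediator subunit Med12 averaged 24.4 ± 2.24 CPM in cKO and 39.6 ± 4.36 CPM in WT libraries, the kinesin Kif21b 16.9 ± 0.843 CPM in cKO and 27.2 ± 3.71 CPM in WT libraries, and the lipid transporter Abca2 42.5 ± 6.75 CPM in cKO and 68.7 ± 6.88 CPM in WT libraries. Ptger2, a receptor for prostaglandin E2, averaged 17.9 ± 2.93 CPM in cKO and 30.01 ± 2.33 CPM in WT libraries. Abi2 (6.96 and 14.3 CPM in cKO and WT), Capn1, the calpain-1 protease (5.46 and 11.6 CPM), and B4galnt4 (3.82 and 11.4 CPM) were at low levels. The edgeR adjusted p of these 8 genes was 0.15 to 0.236.

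Cytosolic ribosomal protein genes made up the longest list with a common direction. Of 79, all tested, 27 were lower at an unadjusted p under 0.05 and none higher, 78 were negative, and the median was -0.25. In 34 of them all cKO libraries lay below all WT libraries (background 6.83%). Rpl39 stood at 1253, 992, 1169.5 and 1167 CPM in cKO libraries 1 to 4, against 1771, 1635 and 1665 CPM in WT libraries 1 to 3, and Rpl23 at 1464, 1411, 1344 and 1464 CPM in cKO libraries 1 to 4, against 1976, 1963 and 2058 CPM in WT libraries 1 to 3. Rpl27a averaged 953 ± 25.5 CPM in cKO and 1282 ± 69.5 CPM in WT libraries, and Rpl5 1207 ± 189 CPM in cKO and 1789.9 ± 88.3 CPM in WT libraries. Their edgeR adjusted p was 0.236 to 0.247. Ribosomal protein genes have many processed pseudogenes that can share reads. The sum stood at 148886, 142557, 171027 and 161025 CPM in cKO libraries 1 to 4, against 177727, 190217 and 188191 CPM in WT libraries 1 to 3. The count of 27 moved with single libraries: it was 15 and 16 without WT library 2 or 3 in turn and 50 without cKO library 3, and was 2 with the covariate (median -0.21).

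In the list of CHD1's own family and other chromatin remodellers 2 of 21 genes were lower at an unadjusted p under 0.05 and none higher, near the background of 5.83%, while 20 were negative (median -0.22). The 2 were Chd1l, at 11.9 to 13 CPM in cKO and 14.8 to 16.7 CPM in WT libraries without overlap, and Srcap. Srcap overlapped between groups (log2 fold change -0.78). Chd8 stood at 17.9 to 19.7 CPM in cKO and 20.7 to 26.7 CPM in WT libraries without overlap, but did not pass that threshold. In the list of transcription elongation and histone H3 lysine 4 methylation 3 of 23 were lower and none higher (median -0.07). These were the methyltransferase genes Kmt2a (7.09 to 10.8 CPM in cKO and 15.4 to 16.3 CPM in WT libraries) and Kmt2b (5.99 to 9.42 CPM in cKO and 10.3 to 14.6 CPM in WT libraries) and the elongation factor Supt6 (11.8 to 19.9 CPM in cKO and 21.4 to 22.9 CPM in WT libraries).

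Few genes of proliferation and metabolism passed an unadjusted p of 0.05. Of 24 DNA replication genes 3 were higher and none lower, with 23 positive (median 0.21), including Rrm1, a subunit of ribonucleotide reductase (109 to 149 CPM in cKO and 75.9 to 101 CPM in WT libraries). At that threshold 1 was higher without cKO library 1 or 4, and none without WT library 1 or 3. Of 24 mitosis genes 1 was lower and none higher (median 0.24). Among 18 glycolysis genes 2 were lower (median 0.06), the glucose transporter Slc2a3 (20.1 to 28.9 CPM in cKO and 36.3 to 39.3 CPM in WT libraries) and the hexokinase Hk1 (19.7 to 37.3 CPM in cKO and 39.6 to 45.3 CPM in WT libraries). Nuclear oxidative phosphorylation genes were positive in 34 of 38 cases, with 3 higher and 1 lower (median 0.17). Cox6a1 averaged 576 ± 87.3 CPM in cKO and 408 ± 15.3 CPM in WT libraries, and Ndufa4 343 ± 27.1 CPM in cKO and 263 ± 22.5 CPM in WT libraries. None of 13 mitochondrially encoded genes passed an unadjusted p of 0.05 (median -0.06). Of 23 immediate early genes 4 were higher and 1 lower (median 0.07), with Klf6 at 145 to 170.4 CPM in cKO and 117 to 123 CPM in WT libraries, Zfp36 at 70.1 to 102 CPM in cKO and 49.5 to 62.2 CPM in WT libraries and Egr2 at 31.8 to 60.7 CPM in cKO and 52.8 to 79.7 CPM in WT libraries. Of 12 heat shock genes 4 were higher and 1 lower (median 0.17), Hsph1 averaging 68.6 and 41.9 CPM and Hspa1b 14.9 and 26.1 CPM in cKO and WT libraries.

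Genes were then sorted by their level in cultured cells, to keep T cell genes apart from RNA of other cells. The reference was the 4 WT control cultures of Th17 cells in the series, which hold no CNS cells and come from a separate table used for levels only. Of 591 tested genes under 1 CPM in all 4 cultures, 123 (20.8%) were higher in cKO CNS cells at an unadjusted p under 0.05 and 16 (2.71%) lower (median log2 fold change 0.36). Of 9827 genes at 1 CPM or more in all 4 cultures, 500 (5.09%) were higher and 595 (6.05%) lower (median -0.02). The first class includes Cd209a, Mpeg1, Sirpb1c, Ifi205, C1qb and Siglech, all at 0 in the cultures. The class is set by level alone and is not a list of myeloid genes. With the covariate, 31 (5.25%) of the 591 genes were higher and 17 lower, against 2.9% and 2.82% of all genes in that fit.

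In the draining lymph node (dLN) the same comparison, 4 cKO against 3 WT libraries, called 7 of 9803 genes (0.0714%), with 20.1% at an unadjusted p under 0.05 (9.61% higher in cKO and 10.5% lower). Of the 7 called, 3 were higher in cKO, among them Cd8a (log2 fold change 6.17) and Cd8b1 (3.84), and 4 lower, among them Ccl1 (-2.60). Of 13 stem-like and naive genes, Lef1 among those listed, 10 were higher in the dLN and none lower (median 0.64). Whether the mix of cells differed between the dLN groups was not tested. Cd209a stood at 0, 1.48, 0 and 0.24 CPM in cKO and 0, 0 and 0 CPM in WT dLN libraries. Interferon-stimulated genes were higher there as well, 19 of 30 tested and none lower (median 0.60), while antigen presentation genes had a median of 0.03 and cholesterol synthesis genes of 0.07. Of 24 mitosis genes 22 were lower in cKO dLN cells (median -1.41), against 1 of 24 in the CNS. Of 24 DNA replication genes 21 were lower in the dLN and none higher (median -1.02). Of 38 nuclear oxidative phosphorylation genes 15 were lower in the dLN and none higher (median -0.19). Of 79 ribosomal protein genes 16 were higher in the dLN and 1 lower (median 0.18), the opposite direction to the CNS. Across 9591 genes tested in both tissues the log2 fold changes had a Pearson correlation of 0.02 and a Spearman correlation of -0.10. Genes are not independent, and the tissues share no library.

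Whether the cKO effect itself differed between the tissues was tested by an interaction in the 14 CHD1 libraries. It was called for 13 of 11589 genes (0.112%), 5 more positive (0.0431%) and 8 more negative (0.069%) in the CNS, and for none when any 1 of the 3 WT CNS libraries was left out. At an unadjusted p under 0.05 the effect was more positive in the CNS for 1104 genes (9.53%) and more negative for 1086 (9.37%). It was more positive for 21 of 24 mitosis genes (median interaction 1.62, against -0.04 over all genes) and 21 of 24 DNA replication genes (1.31), with none more negative in either list. Of 79 ribosomal protein genes 51 were more negative and 1 more positive (median -0.45). Of 38 nuclear oxidative phosphorylation genes 17 were more positive and none more negative (median 0.38). Interferon-stimulated genes (3 of 32 more positive), antigen presentation genes (2 of 12) and cholesterol synthesis genes (5 of 22) had none more negative. Of all these list members Rpl23 passed the adjusted threshold. The tissues come from separate tables, so tissue and table cannot be told apart. The Ogt effect was more negative in the CNS (interaction -1.46 ± 0.21, edgeR adjusted p = 0.0297), with dLN levels of 107, 125, 122 and 95.7 CPM in cKO and 86, 80.2 and 90.3 CPM in WT dLN libraries. The Lef1 effect also differed (interaction -1.73 ± 0.30, adjusted p = 0.0472, edgeR), with 113, 183, 142 and 94.7 CPM in cKO and 63.2, 58.9 and 76.9 CPM in WT dLN libraries. The same held for Inpp4b, a phosphoinositide phosphatase (interaction -1.23 ± 0.20), Kif21b (-1.28 ± 0.22) and Rpl23 (-0.76 ± 0.13). Sdf2l1 had a more positive effect in the CNS (interaction 1.98 ± 0.32, edgeR adjusted p = 0.0388), with 21.6, 26.9, 23.7 and 43 CPM in cKO and 60.4, 66.4 and 46.8 CPM in WT dLN libraries. Ccl1, a chemokine of activated T cells, stood at 1236, 426, 1076 and 919.6 CPM in cKO libraries 1 to 4, against 724, 434 and 510.2 CPM in WT libraries 1 to 3 in the CNS, and at 2.59, 3.46, 3.29 and 3.61 CPM in cKO and 25.8, 19.1 and 14.3 CPM in WT dLN libraries (interaction 3.32 ± 0.49, edgeR adjusted p = 0.0304). The Cd8b1 interaction (-3.97 ± 0.57) came from dLN values of 159.6, 367, 314 and 83.7 CPM in cKO and 18.1, 12.2 and 17.7 CPM in WT dLN libraries, while the CNS groups overlapped. For Plbd1 (3.84 ± 0.66) and Wfdc17 (8.30 ± 1.22) the dLN libraries held at most 3.95 CPM, so these fits rest on low counts there. Slc43a3, a transporter, had an interaction of 1.93 ± 0.30. The other two, Ccdc102a and Gm14085, were named after their values were seen.

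A second CNS comparison in the series, of 2D2 cells labelled GR cKO (n = 4) and GR WT (n = 4) for the glucocorticoid receptor, gives values beside these. Nr3c1 stood at 6.02, 5.2, 6.12 and 5.64 CPM with the GR cKO label, against 17.2, 13.8, 11.5 and 13.7 CPM with GR WT, so its RNA was lower in every GR cKO library but not absent. It shares no library with the CHD1 comparison, and no difference between them was tested. It called none of 11148 genes (0%), with 11% at an unadjusted p under 0.05 (5.69% higher in cKO and 5.31% lower). Cd209a had levels of 0.325, 0, 1.28 and 4.79 CPM in the GR cKO libraries, against 0.939, 16.8, 1.65 and 0.807 CPM with GR WT. Antigen presentation genes were higher there too, 11 of 12 and none lower (median 0.79). Interferon-stimulated genes were not (2 of 32 higher, 4 lower, median -0.03). None of 21 cholesterol synthesis genes was higher and 5 were lower (median -0.36), and 10 of 79 ribosomal protein genes were higher and none lower (median 0.15). T cell receptor and lineage genes were lower there as in the CHD1 comparison, 13 of 22 and none higher (median -0.28). So were co-inhibitory receptor genes, 5 of 11 and none higher (median -0.32). Across 10794 genes the fold changes of the 2 CNS comparisons had Pearson and Spearman correlations of 0.12.

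**Figure D5:**
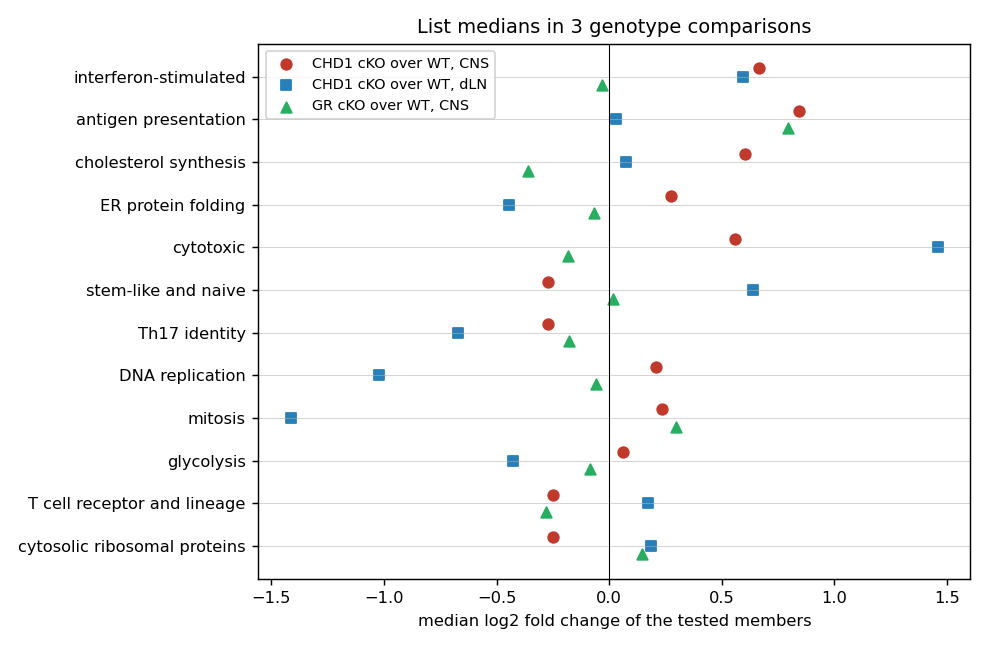
Median log2 fold change (x axis) of the tested members of 12 gene lists in CHD1 cKO over WT in the CNS, CHD1 cKO over WT in the dLN and GR cKO over WT in the CNS. Interferon medians are 0.67, 0.60 and -0.03, and mitosis medians 0.24, -1.41 and 0.30, in that order.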

How the data were processed

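The deposited values are expected counts for each gene symbol, not normalized, which the authors made with RSEM 1.3.3 on mm10 per the submitters' processing notes. All values in the tables are whole, so they were taken to be rounded, and the aligner is not given in the sources used here. Each sample had 1 column and none was left out. Of 31053 symbols, 30464 (98.1%) matched GENCODE M21, which gave positions. The columns of the 7 CHD1 CNS libraries (4911109 to 6262849 counts) were tested in R 4.3.3 with edgeR 4.0.16: filterByExpr (minimum count 10, minimum total 15), TMM, quasi-likelihood F test, Benjamini-Hochberg adjustment, two-sided. SE is the log2 fold change divided by the square root of F. The dLN and GR libraries were fitted in their own tables, and the CHD1 tables were joined for the interaction and the joint fit only. CPM used TMM-scaled library sizes. No molecular identifiers are named, so the 3-count limit covers counting error only.

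The 41 gene lists (694 symbols, 4 absent from the tables) and the genes described were chosen with earlier results of these data known. The rule for naming took Chd1, 11 fixed genes, up to 15 genes per direction by smallest p at 10 CPM or more without predicted, mitochondrial, repeat or sex genes, up to 4 members per list at 5 CPM or more, and up to 6 by level for other cell types. The text gives a selection, and some genes the rule names are not reported here. Genes of the interaction, paralogues and markers used as checks were added outside it.

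Alternatives were DESeq2 1.42.0, its size factors, other filters, a replicate block, each library left out, repeat features left out, a covariate of other cells' RNA and a joint fit of both tissues. The code was tested on simulated data. No within-group pair of libraries was as close as 1 library deposited more than once (lowest chi-square per degree of freedom 11.6, genes with at least 20 counts). Promoters were taken from RefSeq (GRCm38.p6) by symbol.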

Additional observations from a re-analysis of the deposited data

Results flagged for a closer look

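Within the cKO group 1 library stood apart from the other 3, by a gap test that chance passes in about 1 of 20 groups, for 8 of the genes described and 1 list sum, of 117 genes and 41 lists examined. These counts are near what that chance rate gives, so the values below are listed as measured and mark no library as different. The test can be made in groups of 4 or more, so the 3 WT libraries were not examined. In cKO library 3 Il10 stood at 4.67 CPM, Igkc at 428 CPM and the summed B cell genes at 539 CPM, each above the other cKO libraries. In cKO library 2 Ifi205 stood at 49.04 CPM, Entpd1 at 153 CPM and Oas1a at 58.6 CPM, above the other 3, and Cd4 at 155 CPM, below them. In cKO library 1 Klf6 stood at 145 CPM, below the other 3, and Egr2 at 60.7 CPM, above them.

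The cKO effect differed between CNS and dLN for 11 of the genes described, by the interaction test in edgeR (adjusted p 0.0297 to 0.0472), and for none of them when any 1 of the 3 WT CNS libraries was left out. The difference of log2 fold changes, CNS minus dLN, was 3.84 for Plbd1, 3.32 for Ccl1, 1.98 for Sdf2l1, 1.93 for Slc43a3 and 8.30 for Wfdc17. It was -1.46 for Ogt, -0.76 for Rpl23, -1.28 for Kif21b, -1.73 for Lef1, -1.23 for Inpp4b and -3.97 for Cd8b1. Wfdc17 was at 0 in all cKO dLN libraries, so its fitted value is no measure of size.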

How the results depend on the processing

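Cd209a kept its direction in all 15 alternatives, and its call was lost in 6 of them: without cKO library 3, without WT library 1, 2 or 3, under the replicate block (edgeR adjusted p = 0.0737) and with the covariate. The number of genes called in the CNS was 178 with DESeq2 (131 higher, 47 lower) and 72 with no filter on low counts (55 higher, 17 lower). It was 0 with the covariate of myeloid and antigen-presentation RNA (0 higher) and 3 in the joint fit of 14 libraries (1 higher, 2 lower). Leaving out 1 library gave 0 to 2 calls, 0 to 2 higher and 0 to 1 lower. The interaction called 7 genes with DESeq2's size factors in edgeR, 172 with no filter, 95 at a mean of 10 CPM or more, 557 with DESeq2 and 0 to 28 with 1 library left out. The cause of these differences was not tested. Equal replicate numbers did not pair the samples: the correlations of their deviations were 0.109, 0.0547 and -0.038. With the replicate block 3 genes were called in the CNS (2 higher, 1 lower) and 52 in the interaction, and the log2 fold change of Tbx21 turned to -0.029. With 1 library left out, the log2 fold change of Chd1 ran from -0.16 to 0.104, that of Tbx21 from -0.0196 to 0.27 and that of Cd8b1 from -0.23 to 0.012. With the covariate Per1 was at -0.0207, C1qb at -0.0563, Lyz2 at -0.0496, Tyrobp at -0.0853, P2ry12 at -0.11 and Cd8b1 at 0.0299. Of these, C1qb, Lyz2, Tyrobp and P2ry12 are part of the covariate itself. Of the genes described, 63 passed the adjusted threshold with DESeq2 and not with edgeR.

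With 3 WT libraries every WT library weighed on the calls. Il17a, Il23r and Csf2 were removed by the filter on low counts and were not tested with it.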
